A study of Pantherophis guttatus with 6 samples.

Results

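The genes described here lie on 1 long scaffold of the CU assembly of the corn snake (*Pantherophis guttatus*) genome, NW_026844015.1, which carries *WAC*, *KLF6*, *TAX1BP1* and *RAB5A*. Its members are all rows of the count table whose first scaffold entry names it, ordered by their smallest start and without the 10 rows of the retroelement-derived *K02A2.6-like* genes. This gave 666 members among the 25731 genes of the table, spanning positions 8270 to 78508647. Of the members, 474 have a gene name, 140 of these with the suffix "-like", 189 are known only by an identifier and 3 are transfer RNA genes. No counts were found in any library for 62 members, and 440 had enough counts to be tested among 17025 genes.

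Each of the 6 libraries was made from poly(A) RNA of the dorsal skin of a single embryo, collected at embryonic day 40. The genotype label is homozygous hypomelanistic for 3 of them (hypomelanistic 1, 2 and 3) and wild-type for the other 3 (wild-type 1, 2 and 3). No agent or transgene was used, and the study describes the embryos as offspring of heterozygous parents from a single clutch. In its principal component analysis, the study names the sex of the embryos as the main factor separating these samples. The labels give no sex and no batch for any embryo, so no library was assigned to a sex and none was grouped by its level on this scaffold. The part of sex in the levels described here was not tested. Each library is a separate animal, but skin pieces hold several cell types, and in such bulk samples fewer cells of a type and less RNA per cell cannot be told apart.

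Colubrid snakes have ZW sex chromosomes. Males carry a pair of Z chromosomes, whereas females carry a Z and a W, which in colubrid snakes is degenerate and has lost most of the genes of its partner. *WAC*, *KLF6*, *TAX1BP1*, *RAB5A* and *CTNNB1* were placed on the Z of a related rat snake by hybridization to its chromosomes. In snakes, unlike mammals with their X, no chromosome-wide mechanism is known that equalizes Z expression between the sexes, and Z genes differ in how far their RNA level follows their copy number.

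The scaffold was chosen as that of *WAC*, *KLF6*, *TAX1BP1* and *RAB5A*, so their place on it is given and is no check of its label. *KLF6* lies at 11102214 to 11113756, *WAC* at 16051552 to 16119244, *TAX1BP1* at 37837751 to 37890326 and *RAB5A* at 41743482 to 41771168. Of the fifth marker, the scaffold holds *CTNNB1-like* at 60136020 to 60182706, whereas the gene annotated *CTNNB1* lies on another scaffold, NW_026844099.1 (11436583 to 11483023), with nearly the same counts. Looked up in the annotation of a newer corn snake assembly (ASM5975653v1), 562 members had an entry, of which 561 lie on chromosome 4 and 1 elsewhere. That chromosome is not named Z in the newer assembly, so the name Z-linked rests on the genes that chose the scaffold and was not tested.

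Libraries held 29958657 (wild-type 2) to 38541392 (hypomelanistic 3) counts, and the members took 4.59% to 6.22% of them. Most of this was *COL1A2*, a chain of type I collagen, with 3.15% to 4.59% of a library. Without *COL1A2*, the members took 2.32% of counts in hypomelanistic 1 and 1.44% to 1.57% in the other 5 libraries. Ribosomal RNA genes took 8.96%, 10.2% and 11.5% of counts in hypomelanistic 1, 2 and 3. In wild-type 1, 2 and 3 they took 6.48%, 6.30% and 7.89%, so the groups did not overlap. The part of this difference in the comparison of genotypes was not tested. Fibroblast markers fixed for dorsal skin (8 of 8 found, *COL1A2* among them) summed to between 98401 and 119008 CPM (counts scaled by library size, with TMM factors). Keratinocyte markers (6 of 8 found) summed to 1812 to 2077 CPM and melanophore markers (7 of 7 found) to 1566 to 1839 CPM. Skeletal muscle markers (11 of 14 found, none at 0 in all libraries) summed to 980 CPM in hypomelanistic 1, 1188 CPM in wild-type 3 and 2550 to 4221 CPM in the other libraries.

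Expression of the scaffold was higher in hypomelanistic 1 than in any other library. The relative level of a gene is its log2 CPM in a library minus the median of the 6 libraries, so 0 is the usual level and 1 a doubling. Over the 440 tested members, the median relative level was 0.70 in hypomelanistic 1, which is 1.62 times the usual level. It was −0.03 in hypomelanistic 2 and −0.07 in hypomelanistic 3, and −0.04, 0.03 and −0.003 in wild-type 1, 2 and 3. The 16582 tested genes off the scaffold had medians between −0.01 and 0.00 in all 6 libraries, hypomelanistic 1 included. The shift thus appeared in 1 library of 1 genotype and not in its group, and with a single embryo at this level no test between libraries was made.

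**Figure D1:**
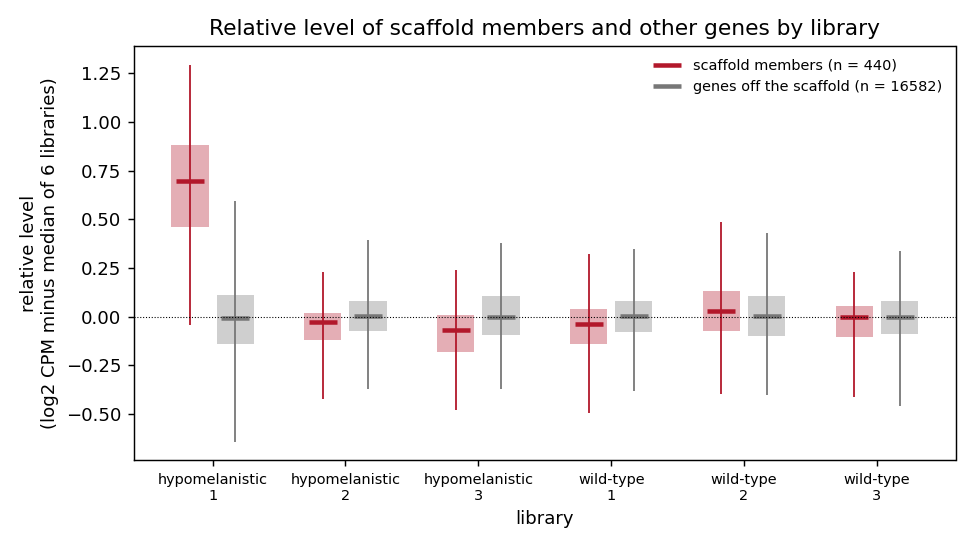
Relative level (log2 CPM minus the median of the 6 libraries, y axis) of scaffold members (red) and of other tested genes (gray) in each library (x axis). Dashes are medians, boxes reach from the lower to the upper quartile, and lines from the 5th to the 95th percentile. The members of hypomelanistic 1 center on 0.70, and all other medians lie between −0.07 and 0.03.

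The difference was carried by most members rather than by a few abundant ones. Hypomelanistic 1 was the highest of the 6 libraries for 373 of 440 tested members (84.8%), against 22.8% of all tested genes. It lay at least 0.3 above the median for 364 members (82.7%), against 13.5% of all tested genes. In the other libraries, 2.73% to 9.09% of members lay that far above the median, beside 6.08% to 8.41% of tested genes off the scaffold. That far below lay 7.27% to 12.0% of members, beside 6.72% to 8.73% off the scaffold. Of the members, 2.27% lay that far below in hypomelanistic 1, beside 12.9% off the scaffold. Where hypomelanistic 1 is highest, the median of the 6 libraries lies higher among the other 5, which adds to their shares below. Without hypomelanistic 1, 5.42% to 9.48% of members lay that far below the median of the other 5. With hypomelanistic 1 left out, the share that far above the median of the remaining libraries was 16.3% in wild-type 2 (from 9.09%) and 9.93% in wild-type 1 (from 5.45%).

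The size of the shift varied from gene to gene. A set of 296 members had a mean of at least 5 CPM, where counting error is small. In it, the quartiles of the relative level in hypomelanistic 1 were 0.53 and 0.86 around a median of 0.72. The mean includes hypomelanistic 1, so a member near 5 CPM can enter the set through a high value there. *KAT2B*, chosen after its values were seen, did so with 10.7 CPM in hypomelanistic 1 against 3.52 to 4.21 CPM elsewhere. The shares in the set are thus partly set by that library. Of the 296 members, 30 (10.1%) lay at 1 or above and 169 (57.1%) between a 1.5-fold level and 1. A further 64 (21.6%) lay between 0.3 and a 1.5-fold level, 23 (7.77%) between 0 and 0.3, and 10 (3.38%) below 0. The relative levels of hypomelanistic 1 had an SD of 0.35 over these members, compared with 0.11 to 0.25 in the other libraries. The distance between the quartiles, which single genes move less, was 0.33 in hypomelanistic 1 and 0.09 to 0.16 in the others. Over all tested genes off the scaffold, hypomelanistic 1 was the most spread library as well. Its quartiles there were −0.14 and 0.11, against −0.10 to −0.07 and 0.08 to 0.11 in the others. Among the members, the median was mostly set by the other 5 libraries, which holds their relative levels near 0. Split into 4 sets of 74 members by mean CPM, the median in hypomelanistic 1 was 0.77, 0.72, 0.74 and 0.64 from the set with the fewest to that with the most counts. Because members near 5 CPM can enter the first set through hypomelanistic 1, the split itself can raise its median. No trend with counts is read from these values.

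The higher level extended over the whole scaffold. In 22 windows of 20 consecutive tested members, the median in hypomelanistic 1 ranged from 0.52 to 0.82. The lowest window ran from *JCAD* to *THNSL1* (15521661 to 17561673) and holds *WAC*, and the highest from *WDR48* to *LMBR1* (2509162 to 6744275). No window median of another library was above 0.10 or below −0.16, so hypomelanistic 1 lay above the other 5 libraries in every window. The longest run of tested members within 0.3 of the median in hypomelanistic 1 was 3 genes, *ASNS*, *C1GALT1* and *COL28A1* (27183429 to 27328346), next to *MIOS* with 0.72. These 4 genes were chosen after their values were seen.

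**Figure D2:**
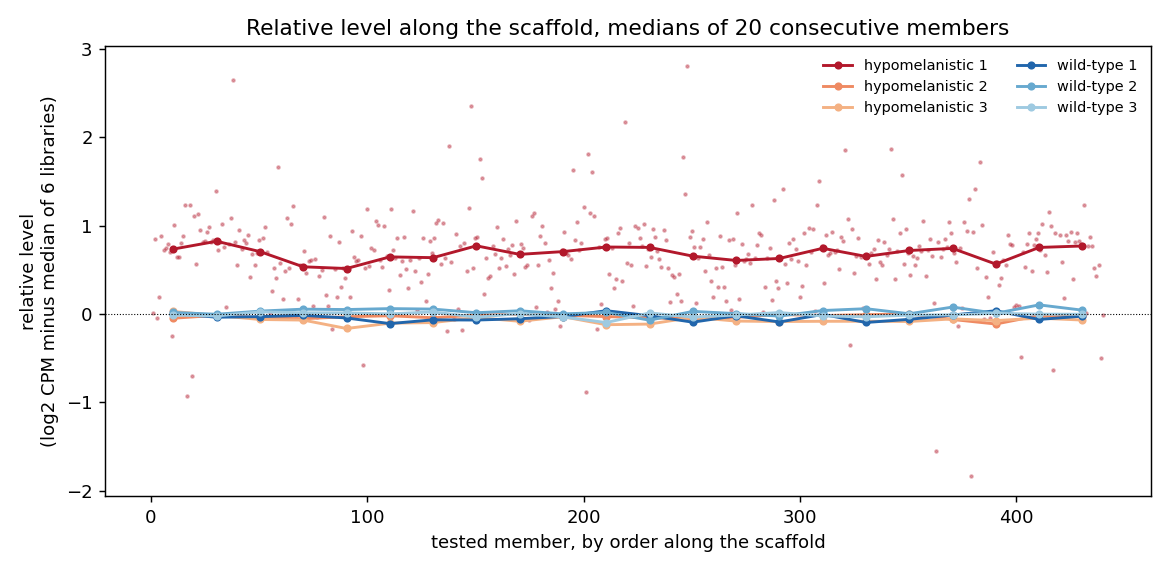
Median relative level (y axis, log2) of windows of 20 consecutive tested members in order along the scaffold (x axis, rank of the member), with a line for each library. Small points are single members in hypomelanistic 1, whose window medians stay between 0.52 and 0.82 while those of the other 5 libraries stay between −0.16 and 0.10.

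Other scaffolds were compared in the same way. Of 61 further scaffolds with at least 50 tested genes, 57 had medians between −0.12 and 0.07 in hypomelanistic 1 and between −0.13 and 0.20 in all libraries. The 4 exceptions were NW_026844035.1 (394 tested genes, 0.64 in hypomelanistic 1), NW_026844041.1 (232 genes, 0.56), NW_026844094.1 (52 genes, 0.77) and NW_026844099.1 (173 genes, 0.30). In the newer assembly, chromosome 4 holds 511 of 512 matched genes of the first, 311 of 311 of the second and 55 of 56 of the third, so these are placed on the same chromosome as the members. Of the fourth, it holds 45 of 123. Placement on that chromosome did not go with the higher level throughout, since NW_026844120.1 (91 tested genes, 94 of 94 matched genes on chromosome 4) had a median of 0.02 in hypomelanistic 1. The scaffold of *WAC* was therefore the largest of several pieces that stood apart in the same library.

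**Figure D3:**
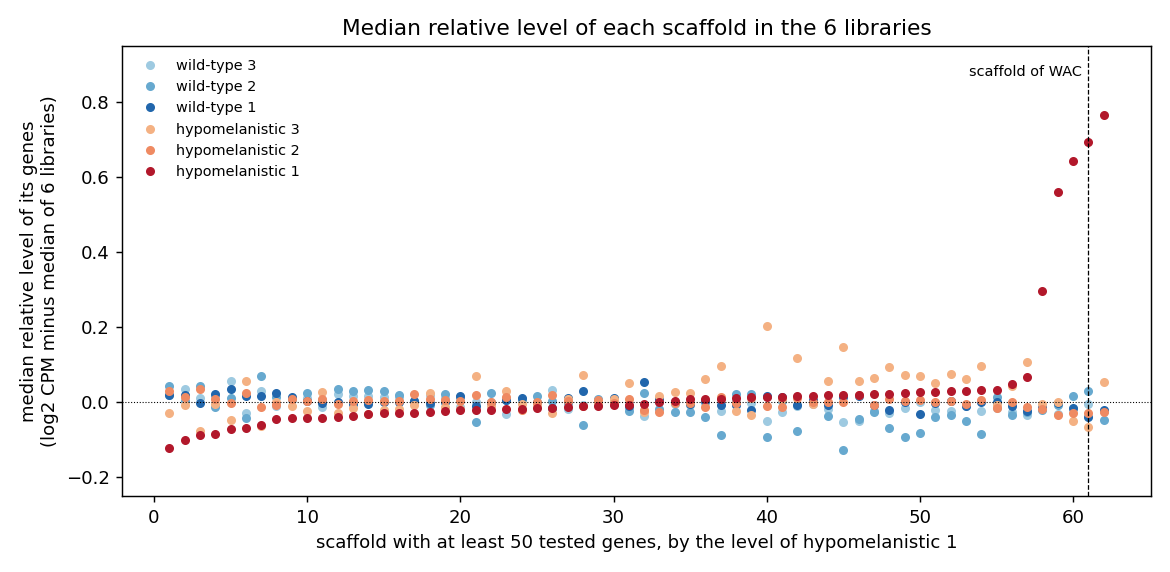
Median relative level (y axis, log2) of the genes of each scaffold with at least 50 tested genes, ordered on the x axis by the level in hypomelanistic 1, with a point for each library. The dashed line marks the scaffold of *WAC*, drawn with its *K02A2.6-like* genes, and the 4 other scaffolds where hypomelanistic 1 lies between 0.30 and 0.77 stand to its sides.

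A stretch of the scaffold occurs a second time in the assembly. Between 49186050 and 63163689, 53 members have a partner on NW_026844099.1, between 382187 and 14464283, with counts that agree within 2% in all 6 libraries, and 52 of the 52 steps from a partner to the next keep the same order. For 30 of them, among them *LIMD1-like* and *CRTAP-like*, the counts of member and partner were equal in every library. Whether the same read pairs were counted at both places was not tested, and the methods describe counting of uniquely mapped pairs. The values of the 53 members, *CTNNB1-like*, *RPSA-like*, *RPL14-like*, *ATP2C1-like* and *EIF1B-like* among them, are equal or nearly equal to those of their partners. These counts do not separate a member from its partner. A further 25 members of the stretch have a namesake on the partner scaffold whose counts differ by more than 2% in some library. Whether their reads are divided or shared in part was not tested either.

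The median in hypomelanistic 1 was close inside and outside the repeated stretch. It was 0.70 over the 88 tested members within the stretch, 0.69 over the 53 of them with a matching partner, and 0.69 over the 352 tested members outside it. On the partner scaffold, the 91 tested genes up to the end of the repeat had a median of 0.69 in hypomelanistic 1. The 82 tested genes beyond it had a median of 0.04. The first section holds the partners, whose counts nearly repeat those of the members, so its value is no separate observation. In the other 5 libraries, the medians of both sections lay between −0.08 and 0.05. The value of 0.30 over the whole partner scaffold thus averages a section at the level of the members and one at the usual level.

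The 5 marker genes of the Z lay below the median member in hypomelanistic 1. *WAC*, which encodes an adaptor for the ubiquitination of histone H2B, had 87.8, 69.1 and 66.9 CPM in hypomelanistic 1, 2 and 3 and 74.2, 81.7 and 79.0 CPM in wild-type 1, 2 and 3. *RAB5A*, a small GTPase of early endosomes, had 15.5, 14.3 and 12.1 CPM in the hypomelanistic and 11.3, 12.3 and 13.0 CPM in the wild-type libraries. Both were highest in hypomelanistic 1, but by margins smaller than the spread of the other 5 libraries, and the groups overlapped.

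*KLF6*, a zinc finger transcription factor, reached 132 CPM in hypomelanistic 1 and lay between 92.9 and 106 CPM elsewhere. *TAX1BP1*, an autophagy receptor, reached 78.3 CPM against 55.2 to 66.6 CPM. *CTNNB1-like*, annotated after beta-catenin, the effector of Wnt signaling and a part of cadherin junctions, reached 665 CPM against 438 to 476 CPM. The relative levels of the markers in hypomelanistic 1 ran from 0.20 for *WAC* through 0.29 for *RAB5A*, 0.31 for *TAX1BP1* and 0.40 for *KLF6* to 0.52 for *CTNNB1-like*. The copy of *CTNNB1-like* had nearly the same counts. All 5 markers were highest in hypomelanistic 1, and their median of 0.31 stands beside 0.70 over all tested members.

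Genes for chromatin, RNA processing and ribosomal proteins were all highest in hypomelanistic 1. Of 14 genes of this list on the scaffold, 13 were tested, with a median of 0.70 in that library and values from 0.20 to 1.51. *HNRNPA2B1*, which encodes an RNA-binding protein of the spliceosomal machinery, had 439, 222 and 233 CPM in hypomelanistic 1, 2 and 3 and 242, 225 and 223 CPM in wild-type 1, 2 and 3. *RPL15*, for a protein of the large ribosomal subunit, had 2469, 1427 and 1638 CPM in the hypomelanistic and 1497, 1278 and 1469 CPM in the wild-type libraries. In both cases the other 5 libraries lay close together and hypomelanistic 1 far above them. *RPSA-like* (1082 against 603 to 678 CPM) and *RPL14-like* (791 against 422 to 516 CPM), also annotated as ribosomal proteins, followed the same pattern. Their copies had nearly the same counts.

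Signaling genes were also highest in hypomelanistic 1, with a median of 0.55 and 12 of 13 tested members highest there, of 14 on the scaffold. *SHH*, the Hedgehog ligand of developing skin appendages, had 60.3, 32.7 and 36.1 CPM in hypomelanistic 1, 2 and 3 and 42.3, 32.5 and 31.9 CPM in wild-type 1, 2 and 3. *ACVR2B*, an activin receptor, reached 56.5 CPM against 31.1 to 34.0 CPM in the other libraries. *NRP1*, a co-receptor for semaphorins and VEGF, reached 158 CPM against 103 to 117 CPM. Of these 3 genes, *ACVR2B* had the narrowest range among the other libraries, and *SHH* was spread more widely, with wild-type 1 second.

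Transcription factors outside the HOXA cluster showed a smaller median shift than every other list but the markers. The lists are not fully separate, since *KLF6* is also a marker and *NRP1* is also on the list for adhesion. Of 21 on the scaffold 17 were tested, with a median of 0.40 in hypomelanistic 1 and 12 highest there. *MLLT10*, a chromatin-associated factor, reached 50.7 CPM against 30.6 to 37.6 CPM, and *TWIST1*, a regulator of mesenchyme, 102 CPM against 67.1 to 85.2 CPM. *ZEB1*, a repressor of epithelial genes, was not shifted, with 71.8, 63.1 and 61.9 CPM in hypomelanistic 1, 2 and 3 and 71.0, 80.7 and 63.7 CPM in wild-type 1, 2 and 3. The list had its lowest value at *MEOX2*, a homeobox factor of mesoderm named after its values were seen, with −0.16 in hypomelanistic 1.

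The HOXA cluster sets positional identity along the body. Of 13 annotated genes of the cluster and its neighbor *EVX1*, 7 were tested and all 7 were highest in hypomelanistic 1, with a median of 0.53. *HOXA2* had 20.9, 10.1 and 10.2 CPM in hypomelanistic 1, 2 and 3 and 9.48, 8.68 and 10.7 CPM in wild-type 1, 2 and 3. *HOXA4* had 11.4, 9.31 and 11.3 CPM in the hypomelanistic and 9.19, 9.58 and 10.5 CPM in the wild-type libraries. The neighbors thus ranged from a relative level of 1.04 (*HOXA2*) to 0.19 (*HOXA4*), with 0.38 for *HOXA3* and 0.30 for *HOXA5*. *HOXA7*, chosen after its values were seen, was high in hypomelanistic 1 (11.6 CPM), hypomelanistic 3 (7.99 CPM) and wild-type 3 (8.49 CPM) and lay between 4.61 and 4.91 CPM in the other 3.

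Genes for adhesion, cytoskeleton and matrix held both strongly shifted and unshifted members. Of 19 on the scaffold 17 were tested, with a median of 0.60 in hypomelanistic 1, where 14 were highest. *ITGB1*, the beta chain of most collagen and laminin receptors, had 457, 303 and 273 CPM in hypomelanistic 1, 2 and 3 and 307, 327 and 320 CPM in wild-type 1, 2 and 3. *VIM*, the intermediate filament of mesenchymal cells, had 3507, 3510 and 3283 CPM in the hypomelanistic and 3124, 3060 and 3473 CPM in the wild-type libraries. *SVIL*, an actin-binding protein of muscle and cell cortex, was highest in hypomelanistic 1 with 234 CPM, while wild-type 2 and 1 followed with 195 and 181 CPM and the other libraries lay between 138 and 153 CPM. The lowest value of the list in hypomelanistic 1 was −0.93 at *XIRP1*, an actin-binding protein of striated muscle named after its values were seen. It had 1.11, 1.73 and 2.71 CPM in hypomelanistic 1, 2 and 3 and 3.37, 3.68 and 0.87 CPM in wild-type 1, 2 and 3, so wild-type 3 lay lower still. These were also the 2 libraries with the lowest sums of skeletal muscle markers, whose part in these values was not tested.

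The member with the largest share of counts did not follow the others. *COL1A2* had 38605, 41095 and 32888 CPM in hypomelanistic 1, 2 and 3 and 40498, 44327 and 40604 CPM in wild-type 1, 2 and 3, so hypomelanistic 1 lay within the range of the other libraries (relative level −0.07). *COL1A1*, which lies off the scaffold and encodes the partner chain of type I collagen, had 44529 CPM in hypomelanistic 1 and 46567 to 52040 CPM elsewhere. The ratio of *COL1A2* to *COL1A1* in CPM was 0.87 in hypomelanistic 1 and ran from 0.69 in hypomelanistic 3 to 0.95 in wild-type 2. It did not set hypomelanistic 1 apart either.

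Membrane traffic genes were mostly higher in hypomelanistic 1. All 13 on the scaffold were tested and 12 were highest in hypomelanistic 1, with a median of 0.60. *RAB18*, a small GTPase of lipid droplets and the endoplasmic reticulum, had 118, 81.7 and 81.5 CPM in hypomelanistic 1, 2 and 3 and 82.0, 84.0 and 84.9 CPM in wild-type 1, 2 and 3. *KIF5B*, the heavy chain of kinesin-1, reached 85.5 CPM against 55.4 to 58.4 CPM, and *BET1*, a SNARE of transport from the endoplasmic reticulum to the Golgi, 92.8 CPM against 60.5 to 69.8 CPM. For *RAB18* and *KIF5B* the other 5 embryos were nearly equal.

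The 7 tested genes for DNA repair and the cell cycle had a median of 0.83 in hypomelanistic 1 and 6 were highest there. *ANLN*, an actin-binding protein of the contractile ring, had 82.1, 45.0 and 44.2 CPM in hypomelanistic 1, 2 and 3 and 47.7, 44.5 and 48.2 CPM in wild-type 1, 2 and 3. *MASTL*, a mitotic kinase, reached 13.0 CPM against 5.81 to 7.43 CPM. *CCNY*, a membrane-bound cyclin, lay lower with a relative level of 0.52.

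Only 5 genes of the list for metabolism and mitochondria lie on the scaffold, and all were tested, with a median of 0.54 in hypomelanistic 1 and 4 highest there. *ACAA1*, a thiolase of peroxisomal fatty acid oxidation, had 60.7, 36.1 and 37.4 CPM in hypomelanistic 1, 2 and 3 and 32.9, 32.8 and 36.0 CPM in wild-type 1, 2 and 3. *HIBADH*, an enzyme of valine breakdown, reached 27.2 CPM against 17.2 to 20.5 CPM. *MTPAP*, the mitochondrial poly(A) polymerase, had 16.8 CPM within a range of 13.7 to 16.9 CPM, and *CYCS-like*, annotated after cytochrome c, had 9.94 CPM against 8.43 to 9.07 CPM. The last pair of genes was close to the usual level.

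**Figure D4:**
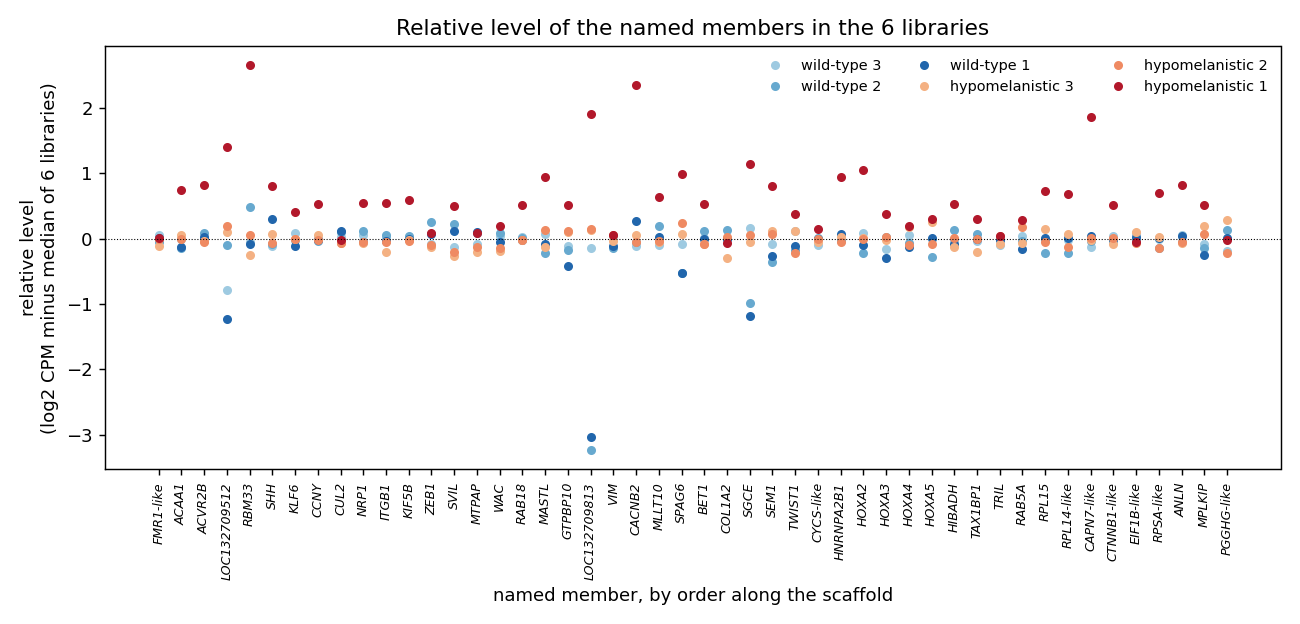
Relative level (y axis, log2 CPM minus the median of the 6 libraries) of 48 members named by rule, in order along the scaffold (x axis), with a point for each library. Hypomelanistic 1 (dark red) lies above the other libraries for most genes. It lies among them for *FMR1-like*, *CUL2*, *ZEB1*, *MTPAP*, *VIM*, *COL1A2*, *EIF1B-like* and *PGGHG-like*. The genes *LOC132709813* and *SGCE* have low points for wild-type 1 and 2.

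The widest ranges over the 6 libraries, in members with a mean of at least 5 CPM, were found for *LOC132709813*, *RBM33*, *CACNB2*, *SGCE* and *CAPN7-like*. That mean includes hypomelanistic 1, and *LOC132709813* and *CACNB2* reach 5 CPM only through that library. *RBM33*, an RNA-binding protein, had 43.6, 7.11 and 5.79 CPM in hypomelanistic 1, 2 and 3 and 6.48, 9.65 and 6.64 CPM in wild-type 1, 2 and 3. *CACNB2*, a beta subunit of voltage-gated calcium channels, had 25.3, 4.72 and 5.09 CPM in the hypomelanistic and 5.91, 4.71 and 4.54 CPM in the wild-type libraries. *CAPN7-like*, annotated after a calpain protease, had 90.2 CPM in hypomelanistic 1 and 22.5 to 25.5 CPM elsewhere. It lies in the repeated stretch, and its namesake on the partner scaffold had nearly the same counts (3068 against 3095 in hypomelanistic 1), so its value may be shared with that gene. In these 3 genes, hypomelanistic 1 was 6.30, 5.11 and 3.65 times the usual level, above the 1.62 of the median member. The other 5 libraries lay close together for *CAPN7-like*, and more widely for *RBM33*, from 5.79 to 9.65 CPM.

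*LOC132709813* and *SGCE* had low values in 2 of the wild-type libraries besides. *LOC132709813*, a gene of unknown product at 20752811 to 20761587, had 20.2, 5.98 and 5.90 CPM in hypomelanistic 1, 2 and 3 and 0.61, 0.52 and 4.87 CPM in wild-type 1, 2 and 3. *SGCE*, a sarcoglycan of the cell membrane next to *CASD1*, had 45.9, 21.6 and 20.1 CPM in the hypomelanistic and 9.14, 10.5 and 23.4 CPM in the wild-type libraries. Wild-type 3 thus lay with hypomelanistic 2 and 3, and wild-type 1 and 2 below them. In wild-type 1 and 2, these were also the only members with a mean of at least 5 CPM that lay more than 0.6 from the median, and no such member was found in hypomelanistic 2, hypomelanistic 3 or wild-type 3. Without hypomelanistic 1 in that mean, *LOC132709813* would fall below 5 CPM.

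The narrowest ranges were found for *TRIL*, *EIF1B-like*, *FMR1-like*, *CUL2* and *VIM*. *TRIL*, an accessory protein of Toll-like receptor signaling, lay between 20.3 and 22.4 CPM in all libraries. *CUL2*, the scaffold of a ubiquitin ligase, lay between 28.9 and 33.0 CPM. *FMR1-like*, the first tested member by position (8270) and annotated after an RNA-binding protein, had 81.7 CPM in hypomelanistic 1 and 75.3 to 84.4 CPM elsewhere. None of these was set apart in hypomelanistic 1, and neither was the last tested member, *PGGHG-like* (78497790 to 78508647), with 9.97 CPM against 8.68 to 12.2 CPM.

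In total, 33 of the 296 members with a mean of at least 5 CPM lay less than 0.3 above the median in hypomelanistic 1. They fell into 16 of the 22 windows, with at most 4 in a window. The lowest was *TTC21A*, a gene of cilia chosen after its values were seen, with 4.11 CPM in hypomelanistic 1 and 6.14 to 8.31 CPM elsewhere. Members at the usual level were therefore scattered among shifted neighbors.

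The comparison of genotypes asks which transcripts differ between hypomelanistic and wild-type skin. No member passed an edgeR adjusted p of 0.05 in the quasi-likelihood test, where 0.0235% of all tested genes (4 of 17025) did, and the smallest adjusted p of a member was 0.828. An unadjusted edgeR p under 0.05 was reached by 11 members (2.5%), against 5.63% of all tested genes. This share depended on the libraries used. With a library left out, it ran from 0.67% (without wild-type 1) to 10.7% (without hypomelanistic 3). The shares of all tested genes in these fits were 5.57% and 5.33%. A share below that of all genes is therefore not read as fewer differences on the scaffold. DESeq2 called none of the members either, where it called 0.374% of all genes, and 23 (3.82%) reached an unadjusted p under 0.05, beside 4.17% of all genes. limma-voom called none, where it called 0.0176% of all genes, and 12 (2.73%) reached an unadjusted p under 0.05, beside 5.7%.

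Fold changes of the members were nevertheless shifted toward the hypomelanistic group. The median log2 fold change over the 440 members was 0.26, compared with 0.00 over all tested genes, with 374 above 0 and 66 below. Without hypomelanistic 1 the median fell to −0.05, with 165 of 443 tested members above 0. The edgeR test without this library called no member, while 25 reached an unadjusted p under 0.05, which is 5.64% beside 5.97% of all genes. The groups did not overlap for 22 members (19 higher and 3 lower in hypomelanistic embryos), or 5.0%. Of all tested genes, this held for 12.2% (983 higher and 1088 lower). Without hypomelanistic 1, it held for 90 members (23 higher and 67 lower), or 20.5%, against 22.7% of all tested genes (1894 higher and 1967 lower). Leaving out a library turns no member whose groups are already apart. The larger set thus holds the first one and further members, mostly lower. While hypomelanistic 1 is included and high, a member can hardly be lower in its whole group. Fewer libraries also separate more often, as over all tested genes (12.2% to 22.7%). The rise is therefore not read as a result about the members.

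**Figure D5:**
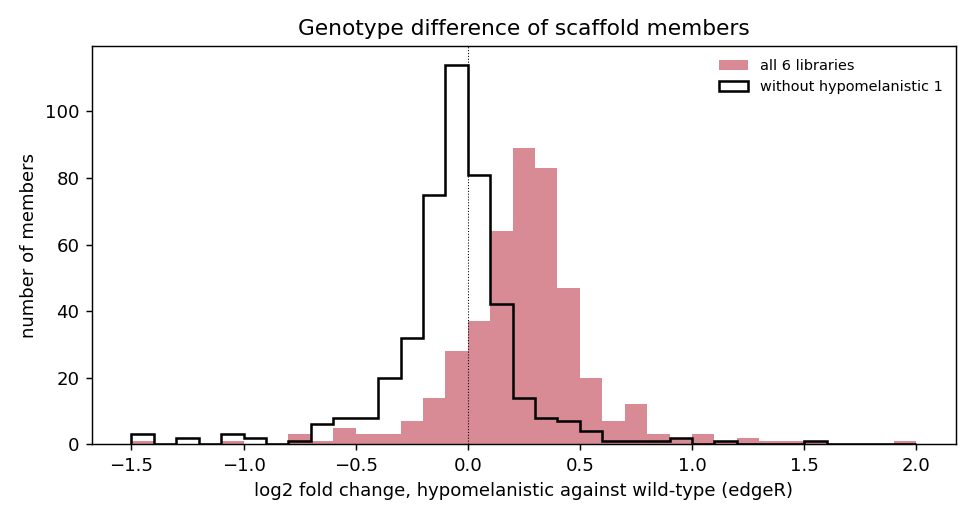
Number of tested members (y axis) by log2 fold change of hypomelanistic against wild-type embryos (x axis, edgeR), with all 6 libraries (red) and without hypomelanistic 1 (black line). The outermost bins also hold values beyond the axis. The median moves from 0.26 to −0.05 when the library is left out.

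For the marker genes, the log2 fold change (± SE) between genotypes was −0.07 ± 0.11 for *WAC*, 0.16 ± 0.12 for *KLF6*, 0.04 ± 0.12 for *TAX1BP1*, 0.19 ± 0.12 for *RAB5A* and 0.18 ± 0.15 for *CTNNB1-like*. Their edgeR adjusted p-values were between 0.828 and 0.967. Without hypomelanistic 1, those of *TAX1BP1* (−0.11) and *CTNNB1-like* (−0.03) turned below 0.

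The 5 members with the smallest p were *MPLKIP*, *SPAG6*, *SEM1*, *GTPBP10* and *LOC132709512*, all higher in hypomelanistic embryos and all with an edgeR adjusted p of 0.828. *SEM1*, a small subunit of the proteasome, had 81.7, 49.1 and 50.7 CPM in hypomelanistic 1, 2 and 3 and 38.9, 36.5 and 44.2 CPM in wild-type 1, 2 and 3, a log2 fold change of 0.60 ± 0.20 (SE). *MPLKIP*, a gene mutated in a form of trichothiodystrophy in humans, had 15.1, 11.1 and 12.0 CPM in the hypomelanistic and 8.88, 9.55 and 9.98 CPM in the wild-type libraries, a log2 fold change of 0.43 ± 0.14. For both genes the groups did not overlap, and hypomelanistic 1 was again the highest.

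*SPAG6*, a protein of the axoneme of motile cilia, averaged 6.16 ± 2.23 CPM in hypomelanistic and 3.38 ± 0.64 CPM in wild-type embryos (SD, n = 3 each). *GTPBP10*, a GTPase of mitochondrial ribosome assembly, averaged 7.75 ± 1.29 and 5.51 ± 0.62 CPM. The identifier-only gene *LOC132709512* averaged 0.60 ± 0.36 and 0.21 ± 0.11 CPM, too few counts for a firm value. For these 3 genes, too, all hypomelanistic values lay above all wild-type values. All 5 genes were picked by their p in these same data, so that separation is no further support. Without hypomelanistic 1, the log2 fold changes of these 5 genes lay between 0.29 and 0.94 with edgeR adjusted p-values of 0.741 to 0.827, so none became a call.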

How the data were processed

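RNA of 6 embryos was sequenced with a stranded mRNA kit. According to the study and the submitters' processing notes, reads were aligned to the CU assembly with STAR 2.7.10b, and the authors deposited raw counts per gene from featureCounts (Subread 2.0.6), with no normalization. No source used here gives the strand setting of the counting, which leaves overlapping and antisense genes uncertain. Of 25735 lines, 4 broken ones (*DST*, *MACF1*) were left out. Members and lists were chosen with earlier results of these data known.

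Genes were kept by filterByExpr. Genotypes were compared with the edgeR 4.0.16 quasi-likelihood test (R 4.3.3, TMM, no covariates, Benjamini-Hochberg over all tested genes at 0.05). The code was also run on simulated counts. These varied less between libraries than the data, so that run does not measure the power reached here. Relative levels used log2 CPM with a prior count of 2. CPM were not divided by gene length. Alternatives were DESeq2 1.42.0, its size factors, limma-voom (limma 3.58.1), no filter, TMM from genes off the scaffold, a prior count of 0.5, a mean of at least 5 CPM, no ribosomal RNA, a replicate block and each library left out. After seeing the data, the repeated members, all members of the repeated stretch, or the copies were also left out. Named were the 5 marker genes, members past the threshold, the 5 with most counts, the 5 with smallest p, the 5 widest and 5 narrowest ranges (mean of at least 5 CPM), the first and last tested member, and up to 4 per list by mean CPM over 9 lists; 1 gene that this rule names is not reported here.

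No library was a duplicate, since chi-square divided by its degrees of freedom was 21.9 to 71.8 between libraries. Replicates are separate embryos. No sequence is shown, since no genome of the files' build was used here.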

Additional observations from a re-analysis of the deposited data

How the results depend on the processing

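The count of members called between genotypes was 0 under all 13 alternatives. The count over all genes, 4 with edgeR, was 85 with DESeq2, and 2 to 10 with a library left out (10 without hypomelanistic 1). The median log2 fold change of members was −0.048 to 0.40 with a library left out, lowest without hypomelanistic 1. The median relative level of members in hypomelanistic 1 stayed between 0.61 and 0.72 under all alternatives that keep it, and that of wild-type 1 was −0.031 to 0.00 with a library left out. The lowest window of hypomelanistic 1 fell to 0.074 with no filter on low counts, where windows hold more members with few counts. With a library left out, log2 fold changes ran from −0.203 (without hypomelanistic 1) to 0.0047 (without hypomelanistic 3) for *WAC*, from −0.11 to 0.148 for *TAX1BP1* and from −0.030 to 0.293 for *CTNNB1-like*, the last 2 lowest without hypomelanistic 1. With the replicate block, 1 gene and 0 members were called. The deviations of replicates of the same number had correlations of −0.08, 0.11 and −0.01, where those of all number pairs ran from −0.12 to 0.11. With 3 libraries per group, these values cannot settle whether the numbers pair the embryos. Depth limits the members below 5 CPM, and a level seen in 1 embryo has no replicate.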

Other observations

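Smaller scaffolds, below the minimum of 50 tested genes, also stood apart in hypomelanistic 1. NW_026844050.1 had a median relative level of 0.62 there over 43 tested genes, and NW_026844030.1 one of 0.33 over 36, while the other 5 libraries lay between −0.09 and 0.03 on both. In the newer assembly, 321 of 321 and 147 of 149 matched genes of these scaffolds lie on chromosome 4. NW_026844125.1, with 43 of 43 matched genes placed there, had −0.02 in hypomelanistic 1 over 41 tested genes. Over all 1002 tested genes placed there but off the scaffold of *WAC*, shifted and unshifted scaffolds together, the median was 0.49 in hypomelanistic 1, against −0.01 over the 14161 genes placed on other chromosomes.

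*SCIN*, which encodes the actin-severing protein scinderin, repeated the pattern of *SGCE* with smaller differences, and was chosen after its values were seen. It had 132, 76.2 and 74.9 CPM in hypomelanistic 1, 2 and 3 and 52.9, 60.7 and 83.7 CPM in wild-type 1, 2 and 3. Wild-type 1 and 2 were the lowest and hypomelanistic 1 the highest. The edgeR adjusted p between genotypes was 0.828.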
